A study of Mus musculus with 12 samples.

Results

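The regions described here are stretches of the mouse genome away from annotated promoters that carried acetylation of histone H4 at lysine 8 (H4K8ac) in oligodendrocyte progenitor cells (OPCs) at both ages studied. They were chosen by the peak calls themselves. The peaks of 6 lists, 1 per library, were merged where they shared at least 1 bp, and a merged region was kept if it held a peak in at least 2 neonatal lists and in all 3 adult lists and if the authors had annotated none of its peaks as promoter, a label their lists give to peaks within 3 kb of a start site. This selected 856 of 98027 merged regions. They are 1.41% of the 60691 regions without a promoter peak and 4.97% of the 17216 such regions with a peak in all 3 adult lists. Presence at both ages is therefore the choice and not a result.

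Forebrain cells of Pdgfr{alpha}H2BEGFP mice were sorted. In these mice a nuclear green fluorescent protein reports Pdgfra, the gene of a growth factor receptor that marks OPCs. The neonatal group was taken at postnatal day 5 (P5) and the adult group at postnatal day 60 (P60), each with 3 H4K8ac libraries labelled as biological replicates. All animals carry the same reporter, the sort was for the reporter, and the 6 matching input libraries were not analysed here. A peak list sums all sorted cells, so a mark in fewer cells and a weaker mark in each cell cannot be told apart.

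Acetylation of histone tails neutralises the charge of lysines, loosens the contact of the histone with DNA and can be read by bromodomain proteins. H4K8ac is found at active promoters and also at active distal elements such as enhancers, which act on genes over a distance. OPCs divide and give rise to oligodendrocytes, the cells that wrap axons in myelin, and neonatal OPCs divide and differentiate faster than adult ones.

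A genome of the files' build was not used here, so sequence could be read only where a region overlapped a window around a RefSeq transcription start, 250 bases before to 50 bases after it (RefSeq, GRCm38.p6). Such an overlap occurred in 40 of the 856 regions, with 44 windows of 41 genes: 35 long non-coding RNA (lncRNA) genes and 6 protein-coding genes. These are starts that RefSeq lists and that the authors' annotation did not count as a promoter for the peaks in question. The 250 bases before the start are shown for 6 of them, 5′ to 3′ on the gene's strand in GRCm38, with each CG dinucleotide in capitals. Gm38882 lies in a region among the 10 strongest, and Gm52261 and Nfix lie in regions of genes on the lists described below; Arhgap32, Zfp33b and Cistr were chosen after their values were seen, to show windows of differing CG content.
Gm38882: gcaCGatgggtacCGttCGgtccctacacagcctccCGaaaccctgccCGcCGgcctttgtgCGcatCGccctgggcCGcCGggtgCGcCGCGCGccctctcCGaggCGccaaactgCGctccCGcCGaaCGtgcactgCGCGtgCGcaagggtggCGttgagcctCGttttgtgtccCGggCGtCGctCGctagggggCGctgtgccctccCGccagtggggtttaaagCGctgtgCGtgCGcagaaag
Gm52261: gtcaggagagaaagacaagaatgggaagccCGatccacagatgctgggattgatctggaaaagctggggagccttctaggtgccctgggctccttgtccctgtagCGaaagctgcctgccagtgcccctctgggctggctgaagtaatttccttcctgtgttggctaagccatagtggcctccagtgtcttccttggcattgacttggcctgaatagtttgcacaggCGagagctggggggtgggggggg
Nfix: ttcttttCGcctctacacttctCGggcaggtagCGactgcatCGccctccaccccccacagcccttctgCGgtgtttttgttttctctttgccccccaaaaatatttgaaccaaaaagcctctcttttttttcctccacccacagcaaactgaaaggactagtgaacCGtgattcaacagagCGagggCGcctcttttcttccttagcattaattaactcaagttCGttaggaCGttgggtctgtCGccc
Arhgap32: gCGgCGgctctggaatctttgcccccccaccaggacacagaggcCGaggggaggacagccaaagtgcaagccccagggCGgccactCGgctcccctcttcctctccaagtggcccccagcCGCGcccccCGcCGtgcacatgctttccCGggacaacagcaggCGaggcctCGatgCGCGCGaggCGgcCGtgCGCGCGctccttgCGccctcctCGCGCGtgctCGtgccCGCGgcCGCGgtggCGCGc
Zfp33b: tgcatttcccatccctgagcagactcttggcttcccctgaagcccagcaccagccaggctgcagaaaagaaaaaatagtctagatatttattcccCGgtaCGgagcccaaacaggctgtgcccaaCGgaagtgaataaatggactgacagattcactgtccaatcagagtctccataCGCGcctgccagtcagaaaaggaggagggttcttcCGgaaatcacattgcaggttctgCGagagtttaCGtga
Cistr: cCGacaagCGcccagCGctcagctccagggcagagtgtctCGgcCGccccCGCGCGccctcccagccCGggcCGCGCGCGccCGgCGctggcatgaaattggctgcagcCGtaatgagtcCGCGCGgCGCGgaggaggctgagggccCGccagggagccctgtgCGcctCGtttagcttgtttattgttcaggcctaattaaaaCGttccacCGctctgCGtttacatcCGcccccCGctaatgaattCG

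The sequence shown for the lncRNA gene Gm38882 is chr6:117879383-117879632 on the plus strand, and these 250 bases held 34 CG dinucleotides at a GC content of 70.4%. The one for Arhgap32, which encodes a GTPase-activating protein, is chr9:32032053-32032302 on the plus strand, with 31 CG dinucleotides and 74.4% GC. Cistr, an lncRNA gene, had 30 CG dinucleotides and 66.8% GC at chr15:102746910-102747159 on the minus strand. The start of Nfix, a transcription factor of the nuclear factor I family, had 11 CG dinucleotides and 49.2% GC at chr8:84780083-84780332 on the minus strand. Zfp33b, a zinc finger gene, had 8 CG dinucleotides and 50.4% GC at chr5:104571422-104571671 on the plus strand. The sequence of the lncRNA gene Gm52261 in the Olig2 region, chr16:91233775-91234024 on the minus strand, had 3 CG dinucleotides and 57.2% GC. Over all 44 windows the number of CG dinucleotides ran from 0 at Gm33542 to 41 at Gm34507.

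Sequence features were taken over the 250 bases before each start. Of the 40 regions, 32 held a whole window, so some of these bases lie outside the marked region. At Gm46725 and Gm46405 the region shared only 5 and 16 bases with the window, and the 250 bases lie outside it. At Gm52067 it shared 3 bases. Over the 44 windows the median GC content was 57.6%, the median number of CG dinucleotides 7 and the median ratio of observed to expected CG 0.41. Promoter counterparts, the 7562 regions that met the same rule of presence but hold at least 1 promoter peak, had medians of 64.4%, 20 and 0.80 over 7218 windows. The 143 windows in regions with 3 adult and 0 neonatal lists had medians of 49.2%, 3 and 0.19, and all 32851 windows of the table had 52.4%, 6 and 0.37. The letters GGGCGG, the core of a GC box, occurred on either strand in 14 of the 44 windows (31.8%), in 67.8% of the counterparts' windows, in 5.59% of the windows in adult-only regions and in 32.7% of all windows. The CCAAT letters were found in 29.5% of the 44 windows and 33.8% of all windows, and TATAAA in 2.27% and 12.4%. A match is only a match of letters, and matches of different motifs may share bases. In GC content, number of CG dinucleotides and share with GGGCGG the 44 windows lay between those of the counterparts and those of the adult-only regions, and the last of these shares was close to that of all windows.

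The lists differ in length. The neonatal lists held 9097, 31189 and 7353 peaks and the adult lists 72278, 72661 and 77002, with replicates 1, 2 and 3 of each age in that order here and below. Reads per library were not analysed here, so the depth behind a peak is unknown. Promoter peaks were present in each library for 14 to 20 of the 20 OPC marker genes and for 1 or 2 of the 16 microglial markers. For the 16 myelin genes the number was 5, 8 and 3 in the neonatal and 16 in each adult library, for the 16 neuronal markers 1, 8, 1, 7, 5 and 5, for the 16 astrocyte markers 6, 13, 3, 11, 8 and 11, and for the 16 vascular and fibroblast markers 1, 6, 1, 5, 5 and 5, in the order of the libraries above. The 16 housekeeping genes had 8, 14 and 7 in the neonatal and 15 in each adult library. For the 16 immediate early genes it was 5, 14 and 7 against 15 in each. In neonatal replicates 1 and 3, fewer marked promoters were thus not particular to the myelin genes. In neonatal replicate 2 the housekeeping and immediate early genes, at 14 each, stood close to the adult 15. The myelin genes there stood at 8 against 16. The 24 patterning and neural factors, at 18, 24 and 13 against 20, 21 and 19, overlapped between the ages. The part of other cell types in the results below was not tested.

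All 856 regions have a peak in neonatal replicate 2, the longest neonatal list. Of them, 378 (44.2%) have peaks in neonatal replicates 1 and 2, 170 (19.9%) in replicates 2 and 3 and 308 (36.0%) in all 3, while the combination of replicates 1 and 3 alone has 0. Just outside the rule lie 2539 non-promoter regions with 1 neonatal and 3 adult lists, and 105 with 2 or 3 neonatal lists but only 2 adult lists. Without neonatal replicate 2 the rule would select 310 regions, and without neonatal replicate 1 it would select 477. With replicate 2 limited to its 9097 strongest peaks, the number in replicate 1, it would select 474, an alternative added after the data were seen.

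Presence in a library that took no part in the choice is not fixed by the rule. When neonatal replicate 1 was left out and regions were chosen on the other 5 lists, 307 of 477 (64.4%, Wilson 95% interval 60.0 to 68.5%) had a peak in it. Over all 17216 non-promoter regions with 3 adult lists the share was 4.16%. For neonatal replicate 3 it was 308 of 686 (44.9%, 41.2 to 48.6%) against 2.84%, and for neonatal replicate 2 it was 310 of 310 (lower limit 98.8%) against 19.5%. Adult replicates 1, 2 and 3, left out in turn, held a peak in 94.1%, 96.9% and 97.5% of the regions chosen on the other 5 lists, against 75.4%, 81.5% and 93.4% of all non-promoter regions in the 2 adult lists used. Promoter counterparts were found again in 77.9%, 100% and 68.5% of cases in the neonatal and in 98.5 to 99.5% in the adult libraries. In each of the 6 libraries the share for the chosen regions thus stood above that for non-promoter regions in general, and in 5 of 6 below that for promoters chosen in the same way. These shares were not tested, and intervals cover counting error only. They were also not matched for width, and 1 shared base counted as presence. The regions marked at both ages were wider than the adult-only regions (median 1656 against 947 bp), and the part of width was not tested.

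**Figure D1:**
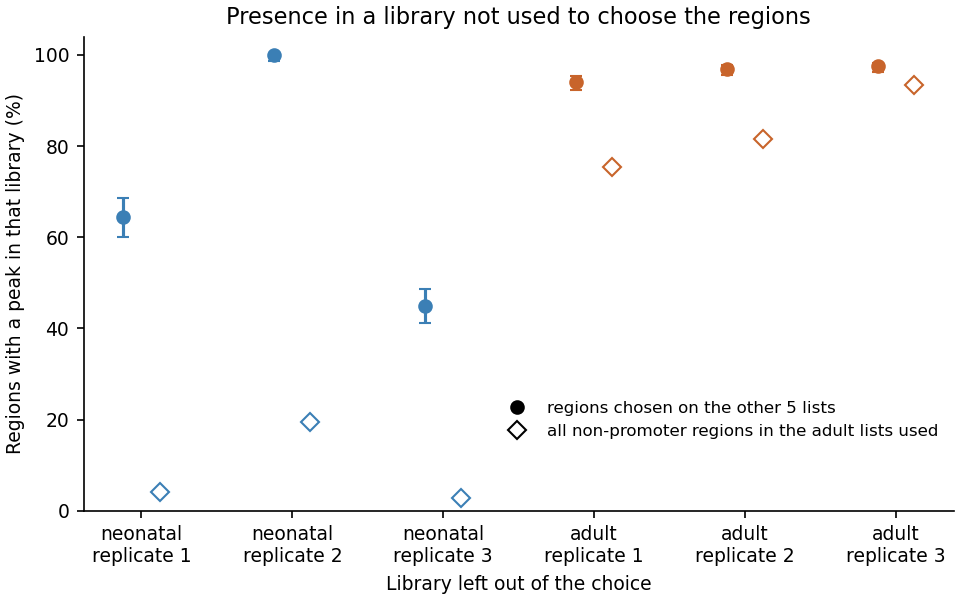
Share of non-promoter regions (y axis, percent) with a peak in the library left out of the choice (x axis, 6 H4K8ac libraries, blue neonatal and orange adult). Filled circles are regions chosen by the rule on the other 5 lists, open diamonds all non-promoter regions in the adult lists used, and bars are Wilson 95% intervals. For neonatal replicates 1 and 3 the circles stand at 64.4% and 44.9% and the diamonds at 4.16% and 2.84%.

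The rule asks for peaks at both ages, and the neonatal lists are shorter. The peaks of these regions therefore make up a larger part of the neonatal lists than of the adult ones. The regions hold 864, 1490 and 574 peaks of the neonatal libraries, which is 9.50%, 4.78% and 7.81% of each list. Of the adult libraries they hold 1549, 1447 and 1043 peaks, or 2.14%, 1.99% and 1.35%. Within a region that had a peak, the median covered length was 276, 845 and 270 bp in the neonatal and 1153, 1224 and 1465 bp in the adult libraries (means 463 ± 330 and 1281 ± 164 bp, SD, n = 3 each). The median covered lengths of the 2 ages did not overlap, and neonatal replicate 2 stood apart from the other neonatal libraries. Over their whole lists the neonatal libraries covered 2.98, 13.7 and 2.33 Mb and the adult ones 41.9, 44.3 and 60.9 Mb. Longer adult coverage is therefore a feature of the lists as a whole. Where single regions below are said not to overlap, the share of all regions that do the same is not given.

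Fold enrichment is the authors' own value for each peak over its local background, and sets of peaks were compared by it only within a list. Folds of named regions are given further down for each library. Differences between lists in those folds are not read as differences between the ages. The median fold of member peaks was 4.40, 5.08 and 4.29 in the neonatal libraries and 6.14, 5.84 and 6.82 in the adult libraries. The promoter counterparts had medians of 4.93, 7.02 and 4.71 and of 11.1, 8.20 and 10.0. The non-promoter peaks had the lower median in 6 of 6 libraries, by 0.44 on the log2 scale on average, a ratio of 0.735 (exact two-sided sign-flip permutation test over 6 libraries, p = 0.0312, the smallest this design allows; Benjamini-Hochberg adjusted over the 4 tests made, p = 0.125). The difference was −0.17, −0.47 and −0.13 in the neonatal libraries and −0.85, −0.49 and −0.56 in the adult libraries. The adult values were all lower than the neonatal ones, by a mean of 0.38 (exact two-sided permutation test, 3 against 3, p = 0.1, the smallest possible; adjusted p = 0.133), so neither test passed 0.05 after adjustment. With each list limited to its 7353 strongest peaks the fold difference was −0.075 (exact p = 0.156).

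The percentile of a peak's fold within its own list is a rank of that same fold, so it must give the same order and adds no separate result. Non-promoter peaks had median percentiles of 37.7, 56.5 and 38.2 in the neonatal and 69.9, 70.1 and 79.6 in the adult lists. Their promoter counterparts stood at 54.4, 78.3 and 53.4 and at 89.7, 85.6 and 90.9. Percentiles from lists of such different length do not compare the ages. Median peak widths were 250, 477 and 242 bp against 279, 531 and 270 bp in the neonatal libraries and of 654, 707 and 1168 bp against 833, 743 and 1151 bp in the adult ones. This width difference averaged −0.15 on the log2 scale (exact sign-flip permutation test, p = 0.0625, adjusted p = 0.125) and had the opposite sign in adult replicate 3. It was −0.0068 with neonatal replicate 2 limited to its 9097 strongest peaks (exact p = 0.906), −0.088 without that replicate (exact p = 0.312) and 0.36 with each list limited to its 7353 strongest peaks, so a difference in width is not established. Its difference between the ages was 0.02 (exact permutation test, p = 1, adjusted p = 1).

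**Figure D2:**
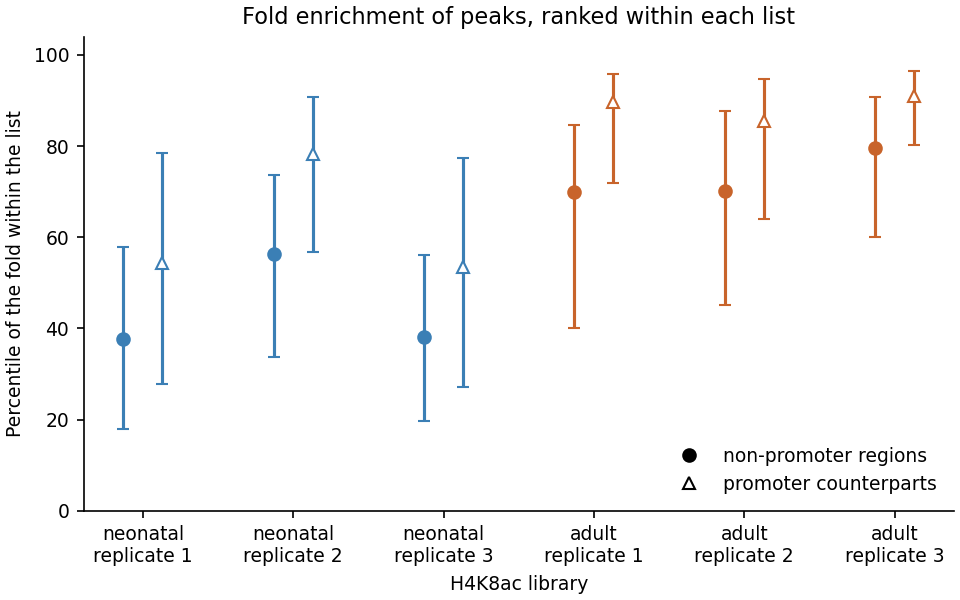
Percentile of the fold enrichment of peaks within their own list (y axis) in each of the 6 H4K8ac libraries (x axis, blue neonatal, orange adult). Filled circles are the non-promoter regions marked at both ages, open triangles their promoter counterparts, and bars span the quartiles of the peaks. The circle lies under the triangle in 6 of 6 libraries, which follows from the order of the median folds.

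Among the 308 regions with a peak in all 6 lists, the order of the regions by fold was shared closely between adult libraries and loosely otherwise. Spearman's rank correlation over these regions was 0.75 to 0.78 for the 3 pairs of adult libraries, 0.23 to 0.40 for the 3 neonatal pairs and 0.14 to 0.39 for the 9 pairs of a neonatal with an adult library. These are descriptions over regions that share libraries, and regions near each other are not independent.

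By position, 424 of the 856 regions were distal intergenic (49.5%, Wilson 95% interval 46.2 to 52.9%), 332 intronic (38.8%, 35.6 to 42.1%), 53 exonic, 37 in a 3′ UTR, 7 in a 5′ UTR and 3 just downstream of a gene. The position beyond the absence of a promoter label was not used by the rule. In the 13821 non-promoter regions with 3 adult and 0 neonatal lists the order was reversed, with 32.9% distal intergenic and 58.5% intronic. The 2539 regions with 1 neonatal list stood between, with 43.8% and 45.7%. Regions with 2 neonatal lists had 50.4% distal and 41.2% intronic, and those with all 3 had 48.1% and 34.4%, with the exonic share at 4.74% and 8.77% and the 3′ UTR share at 2.92% and 6.82%.

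Regions marked at both ages were also wider, with a median of 1656 bp against 947 bp for the adult-only regions, so the shares were set beside each other within ranges of width. Under 1000 bp, 57.3% of 192 regions marked at both ages and 34.5% of 7291 adult-only regions were distal intergenic. From 1000 to 2000 bp it was 54.2% of 319 against 32.3% of 4189, and above 2000 bp 40.9% of 345 against 29.3% of 2341. The intronic share in these ranges was 26.6%, 34.2% and 49.9% against 58.0%, 58.6% and 59.8%. In each of the 3 ranges the distal share was higher and the intronic share lower than in adult-only regions, but above 2000 bp intronic regions were the larger class in both. No test was made of these shares, since regions of 1 set of libraries are not replicates.

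**Figure D3:**
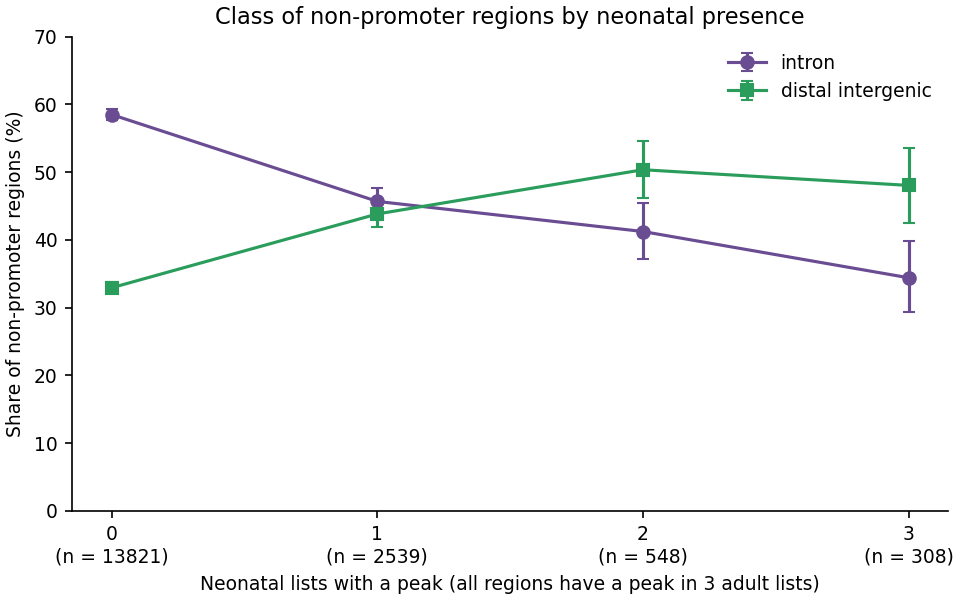
Share of non-promoter regions (y axis, percent) annotated by the authors as intronic (purple circles) or distal intergenic (green squares), by the number of neonatal lists with a peak (x axis), for regions with a peak in all 3 adult lists. Bars are Wilson 95% intervals. The intronic share falls from 58.5% at 0 lists to 34.4% at 3 lists, and the distal share stands at 32.9% and 48.1%.

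The nearest assigned start was a median of 12.2 kb away, against 14.6 kb for adult-only regions, and 52 regions (6.07%) lay more than 50 kb from it, against 12.7%. A promoter of the same gene was itself marked at both ages for 346 regions (40.4%), against 36.3% of adult-only regions. RefSeq start windows were overlapped by 4.67% of the regions (Wilson 95% interval 3.45 to 6.30%), by 3.47% of those with 1 neonatal list and by 0.977% of adult-only ones. Within the ranges of width used above, the share was 2.08%, 5.33% and 5.51% for the regions marked at both ages against 0.617%, 1.03% and 2.01% for adult-only regions. When regions within 3 kb of any RefSeq start were also left out, 779 remained. None of the 856 regions overlapped 1 of the 1005 miRNA hairpins in the RefSeq table, 0 of 856 with an upper 95% limit of 0.447%. Of the 13821 adult-only regions 2 (0.0145%) did, and of the 2539 regions with 1 neonatal list 0. The absence is therefore not particular to the regions marked at both ages.

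The authors compared the ages in a table of sites of mostly 400 bp, all with an adjusted p-value under 0.05. Positive log2 fold changes were read as adult-higher, because 85.0 to 96.7% of the sites with a positive value and 15.7 to 23.2% of those with a negative one overlapped a peak of an adult list. In the authors' deposited table, 503 of the 856 regions (58.8%) overlapped an adult-higher site and 4 (0.467%) a neonatal-higher one. Over the 55048 merged regions found in at least 2 lists the shares were 79.6% and 0.454%. The table rests on the libraries that chose the regions, so nothing is read from these shares as a test. Adult-only non-promoter regions overlapped an adult-higher site of the authors' deposited table in 95.6% of cases, regions with 1 neonatal list in 66.1% and promoter counterparts in 79.7%. The other 349 regions marked at both ages overlap no listed site, which does not show that they are equal at the ages.

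Where there was a site, its log2 fold change had a median of 1.53 in the authors' deposited table (quartiles 1.21 and 1.85; 507 regions). It was 1.43 for promoter counterparts, 1.83 for regions with 1 neonatal list, 3.08 for adult-only regions and 2.41 over all regions in at least 2 lists. The sets were defined by neonatal presence in the same libraries, so their order is not a test. Each median covers only regions with a listed site: 59.2% of those marked at both ages, 79.9% of counterparts, 66.1% with 1 neonatal list and 95.6% of adult-only ones. Of the 511 sites in the 856 regions, 478 (93.5%) overlapped a neonatal peak, with a median of 1.50 in the authors' deposited table. The other 33 sites, in 31 regions, overlapped no neonatal peak, were all adult-higher and had a median of 2.38. In 29 of those 31 regions no listed site lay on a neonatal peak, although the merged stretch holds one. The other 2, at Atg101 and Galnt2, have a second site that does.

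**Figure D4:**
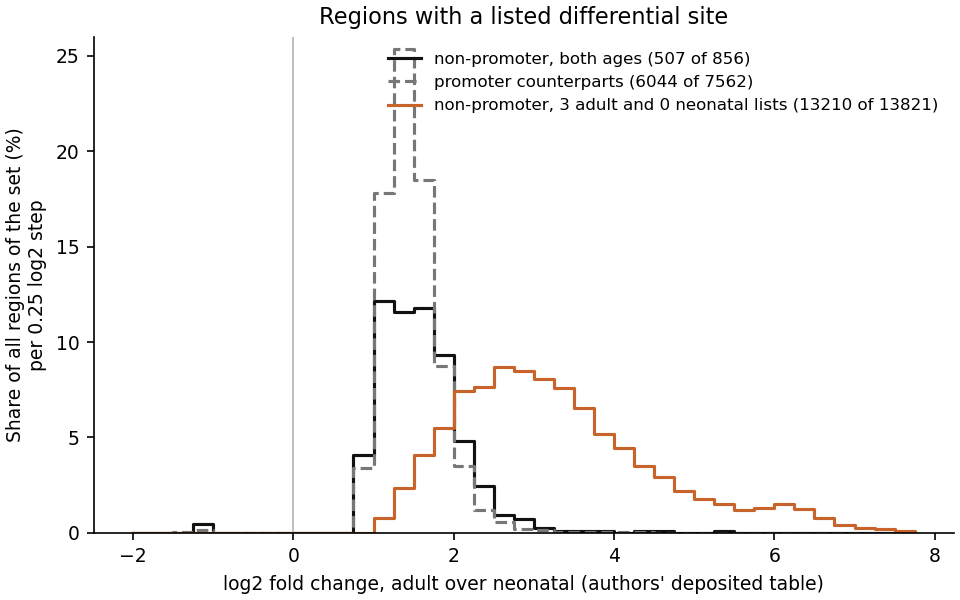
Log2 fold change of the listed site of each region, adult over neonatal, in the authors' deposited table (x axis, steps of 0.25), as a share of all regions of the set (y axis, percent). The black line is the non-promoter regions marked at both ages, the grey dashed line their promoter counterparts and the orange line non-promoter regions with 3 adult and 0 neonatal lists. Medians over the regions with a listed site are 1.53, 1.43 and 3.08, and the sets were defined by presence in the same libraries.

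The regions were ranked by the median, over the lists with a peak, of the percentile of their strongest peak. The highest of the 856 lies at chr4:8908299-8917581, distal intergenic, 29.7 kb from the pseudogene Rps18-ps2 to which the authors assigned it. Its strongest peak had a fold of 5.84, 14.7 and 4.80 in the neonatal and of 27.8, 19.7 and 26.7 in the adult libraries. Peaks covered 1347, 3520 and 929 bp of it in the neonatal and 8113, 8804 and 9044 bp in the adult libraries, so the ages did not overlap and the adult lists covered nearly the whole stretch. The adult lists also covered more bases over the genome as a whole. Its site has a log2 fold change of 1.53 in the authors' deposited table (adjusted p = 0.000908).

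Next came a compact region of 1280 bp at chr12:8640803-8642082, distal intergenic, 32.3 kb from Pum2, which encodes an RNA-binding repressor of translation. Folds there were 8.24, 17.7 and 6.32 in the neonatal and 27.1, 26.1 and 17.0 in the adult replicates. Within the lists, the lowest of its 6 percentiles was 88.1, in neonatal replicate 3. The third, at chr15:85668750-85673247, is in intron 1 of the lncRNA gene Lncppara, with folds of 7.85, 15.5 and 6.93 in the neonatal and 32.0, 15.0 and 26.5 in the adult replicates. Here the lowest percentile was 93.1, again in neonatal replicate 3, so the region ranked high at both ages.

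Cbx8, a Polycomb protein gene, was assigned a distal region at chr11:119055494-119057636 with folds of 8.24, 18.7 and 8.84 in the neonatal and 21.9, 13.0 and 9.87 in the adult replicates. Its percentiles were 96.8, 99.9 and 99.0 in the neonatal and 98.8, 96.7 and 90.5 in the adult lists, the lowest in adult replicate 3. Its site nonetheless is adult-higher, with 1.00 in the authors' deposited table (adjusted p = 0.0325). The region assigned to Cd9, a tetraspanin of the cell membrane, at chr6:125426099-125427212 had folds of 6.51, 13.7 and 4.46 and of 20.6, 19.3 and 17.5. The one assigned to Scd1, a fatty acid desaturase gene, lies at chr19:44387808-44390221, 17.3 kb from the start, and had folds of 4.44 and 10.0 in neonatal replicates 1 and 2, no peak in replicate 3, and 19.0, 16.7 and 17.3 in the adult replicates. Both were covered over a longer stretch in each adult than in each neonatal library, as with the medians over all regions marked at both ages. The remaining regions of the 10 are assigned to Mir692-2 within Grik3, 1700116H05Rik, Zfp239 and Gm36246 beside Sp7, and the one at Zfp239 holds the Gm38882 start shown above.

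Genes of the OPC list had 5 of these regions: 4 of 20 genes were assigned at least 1, where 762 of all 23433 genes assigned any peak (3.25%) were. Every other list also lay above 3.25%, at 6.25 to 25% of its genes, so a share above it is not particular to OPC genes. The 3.25% counts only genes with a peak, while list shares count all genes of the list. All 20 OPC genes had a peak, but only 11 of the 16 neuronal and 5 of the 16 microglial genes. The lists were chosen with earlier results known, and no list was tested. The strongest of the 5 lies at chr9:56876005-56884066 in Cspg4, the gene of the NG2 proteoglycan that marks OPCs and also pericytes. Its folds were 5.77, 8.17 and 5.76 in the neonatal and 13.8, 13.4 and 14.6 in the adult replicates. Peaks covered 2026, 5643 and 418 bp in the neonatal and 7364, 7585 and 8042 bp in the adult libraries, without overlap. The median covered lengths over all regions marked at both ages did not overlap either. The site in this Cspg4 region has a log2 fold change of 1.73 in the authors' deposited table (adjusted p = 9.28e-05).

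The region of Olig2, a transcription factor that sets the oligodendrocyte lineage, has no listed site in the authors' deposited table. It lies at chr16:91231338-91235233, 6.85 kb from the Olig2 start, and contains the Gm52261 start shown above. Folds were 4.46, 7.60 and 5.05 in the neonatal and 6.39, 6.24 and 5.68 in the adult replicates. These folds overlapped between the ages. Covered lengths were 686, 1989 and 432 bp against 2899, 3191 and 3372 bp, again without overlap. The same holds for the medians over all regions marked at both ages, so it is not particular to Olig2. Regions of Cspg5, which encodes a brain proteoglycan, and of C1ql1, a secreted C1q-like protein made by OPCs, ranked low, 842 and 817 of 856. At C1ql1 the covered length was 232, 970 and 248 bp in the neonatal and 160, 164 and 822 bp in the adult libraries, so the ages overlapped.

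Of 16 myelin genes 1 (6.25%), Fa2h, which makes the hydroxylated lipids of myelin, was assigned a region marked at both ages, a share that the cell cycle, astrocyte and housekeeping lists also have. An adult-only non-promoter region was assigned to 14 of the 16, and to 23.5% of all 23433 genes. The Fa2h region, in intron 1 at chr8:111375452-111380784, had no peak in neonatal replicate 1, folds of 5.83 and 4.04 in neonatal replicates 2 and 3, and 11.9, 12.5 and 16.8 in the adult replicates. Neonatal peaks covered 466 and 160 bp and adult peaks 3870, 4022 and 5333 bp, so the neonatal mark was a small part of the adult one. Among 16 regulators of differentiation, Bcas1 and Chd7 were assigned 1 and 2 regions. At Chd7, a chromatin remodeller gene, the region chr4:8870844-8881656 was covered over 172 and 430 bp in neonatal replicates 1 and 2, not at all in replicate 3, and over 9000, 9686 and 10636 bp in the adult replicates. The authors' deposited table gives it a log2 fold change of 2.40 (adjusted p = 1.48e-07).

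Patterning and neural transcription factor genes had 6 regions at 5 of 24 genes: Sox4, Nfix, Meis1, Id2 and Hes1. Nfix has 2, both in intron 1, 3.93 and 3.82 kb from the assigned start. The one at chr8:84791403-84796099 had folds of 4.29, 9.63 and 5.22 in the neonatal and 17.7, 12.9 and 18.5 in the adult replicates, and its site has a log2 fold change of 1.69 in the authors' deposited table. The weaker one, chr8:84777967-84780805, holds the Nfix start shown above, with folds of 4.12, 4.81 and 3.79 and of 6.76, 9.08 and 7.30. Id2, an inhibitor of basic helix-loop-helix factors, and Hes1, a repressor downstream of Notch, have regions in which the covered lengths of the ages overlapped. Id2 was covered over 1072 and 338 bp in neonatal replicates 2 and 3, not at all in replicate 1, and over 657, 264 and 174 bp in the adult replicates. At Hes1 it was 426, 958 and 783 bp against 708, 501 and 1007 bp, and neither region has a listed site. Sox4 had 707, 1914 and 151 bp against 578, 629 and 1531 bp, likewise overlapping.

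Feedback genes of signalling pathways had 9 regions at 5 of 20 genes: 4 at Notch1, 2 at Sulf2 and 1 each at Spred2, Nrarp and Axin2. Notch1 is the receptor, Nrarp a Notch target that limits Notch signalling, Axin2 a limiter of Wnt signalling, Spred2 an inhibitor of the Ras pathway and Sulf2 an enzyme that trims heparan sulfate outside the cell. The strongest Notch1 region, in intron 2 at chr2:26486060-26489147, had folds of 5.32, 9.88 and 4.55 in the neonatal and 9.29, 8.64 and 10.0 in the adult replicates. Covered lengths there were 1597, 2550 and 671 bp against 2553, 3008 and 3016 bp, with neonatal replicate 2 just under the lowest adult library. The authors' deposited table gives 1.46 for it (adjusted p = 0.00102) and 1.18 for a second, distal Notch1 region, and the other 2 have no listed site.

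Immediate early genes had 5 regions at 4 of 16 genes: 1 each at Fos, Egr1 and Ier2 and 2 at Nr4a1. Lipid genes had 2 at 2 of 16, Scd1 above and Elovl5, an elongase of polyunsaturated fatty acids. The Elovl5 region at chr9:77909225-77912647 was covered over 581, 1234 and 667 bp in the neonatal and over 1948, 2173 and 3420 bp in the adult libraries. These lengths did not overlap, as with the medians over all regions marked at both ages. Cytoskeleton and adhesion genes had 2 at 2 of 16, Actb and Dst, and cell cycle genes 1 at 1 of 16, Ccnd3. Actb was also the single hit of 16 housekeeping genes. Of the lists for other cells, neurons had 4 regions at 3 of 16 genes (Neurod2, Tbr1 and Bcl11b), microglia 2 at 2 (C1qb and Spi1), astrocytes 1 at Aldh1l1, and vascular cells and fibroblasts the 2 Cspg4 regions. At Spi1, a myeloid transcription factor gene, the region was covered over 344, 987 and 464 bp in the neonatal and 346, 263 and 322 bp in the adult libraries, so the ages overlapped.

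**Figure D5:**
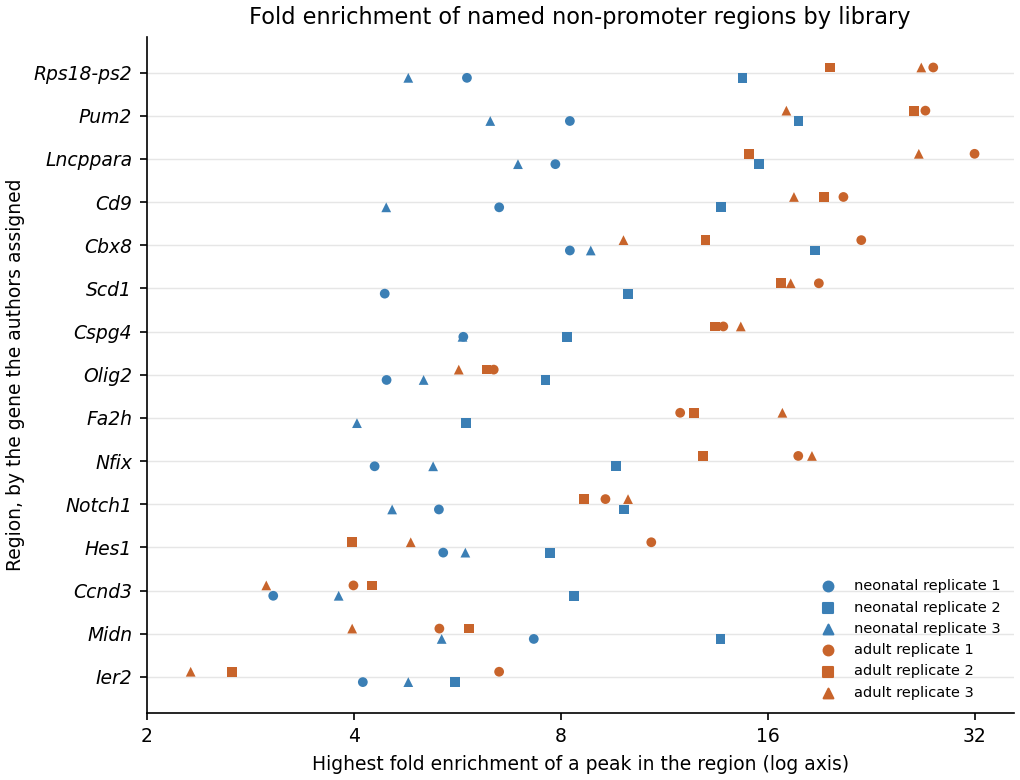
Fold enrichment of the strongest peak (x axis, log axis, the authors' values) in 15 regions named by the gene the authors assigned (y axis), for 3 neonatal (blue) and 3 adult (orange) H4K8ac libraries, with a symbol for each replicate and none where a list has no peak. For genes with several regions the highest-ranked is drawn. At Pum2 the folds run from 6.32 to 27.1, at Ier2 from 2.32 to 6.51.

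The 4 regions with a neonatal-higher site in the authors' deposited table are in all 3 neonatal lists. At Midn, which encodes midnolin, a factor in the breakdown of nuclear proteins, the 3′ UTR region chr10:80155709-80156785 had folds of 7.31, 13.7 and 5.37 in the neonatal and 5.33, 5.88 and 3.98 in the adult replicates. Covered lengths were 906, 1077 and 490 bp against 254, 202 and 890 bp, so the ages overlapped in adult replicate 3. Its log2 fold change is −1.08 in the authors' deposited table (adjusted p = 0.0181). Ier2, an immediate early gene, had a region at chr8:84655266-84657096 covered over 448, 1745 and 331 bp against 166, 344 and 421 bp, with −1.04 in the authors' deposited table (adjusted p = 0.0455). In intron 1 of Ccnd3, the gene of cyclin D3, the region chr17:47521165-47522759 was covered over 256, 1595 and 340 bp against 139, 544 and 548 bp, with −1.22 (adjusted p = 0.0336) in the authors' deposited table. Gm35040 had folds of 7.27, 7.43 and 5.56 against 5.42, 5.18 and 2.77 in its region at chr7:79543124-79544070, and −1.09 (adjusted p = 0.0165) in the authors' deposited table. Each of the 4 adjusted p-values lies between 0.0165 and 0.0455.

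At the other end, taking for each region the site that shares most bases with it, the largest positive values in the authors' deposited table belong to Gm30806 (5.40), 5031439G07Rik (4.50), Gm49613 (4.34), A230009B12Rik (3.91) and Gm13096 within Acot7 (3.56). Both 5031439G07Rik and Gm13096 hold a further site with a higher value, 5.47 and 4.55 in the authors' deposited table, and 5.47 is the largest at any site in the 856 regions. In 4 of these 5 no listed site overlaps a neonatal peak, the exception being A230009B12Rik. At Gm30806, chr14:67135488-67148233, the neonatal libraries covered 393, 1858 and 177 bp and the adult libraries 9553, 11103 and 12538 bp. The Gm49613 region, chr16:91190355-91194186, lies on the same chromosome as the Olig2 region at lower coordinates and was covered over 414, 1858 and 232 bp against 3504, 3576 and 3746 bp. In each case the adult mark reached well past the neonatal peaks, which a choice by the largest positive values favours.

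The longest adult marks were chosen by the length covered in the adult lists, which likewise favours longer adult than neonatal marks. In the region that spans parts of Gna12, a G protein subunit gene, and Amz1, chr5:140761563-140793491, the adult peaks covered 26460, 28871 and 31258 bp, while neonatal peaks covered 406 and 1436 bp in replicates 1 and 2 and none of it in replicate 3. Soga1 had 203 and 2166 bp in the same neonatal replicates against 21203, 21432 and 23919 bp. The region at Hacl1, a peroxisomal lyase gene, chr14:31654837-31671599, differed in that the neonatal libraries also covered kilobases, 4107, 6681 and 2750 bp against 14678, 14877 and 16418 bp. Its log2 fold change is 1.26 in the authors' deposited table (adjusted p = 0.00647), against 2.51 for Gna12 and Amz1 and 2.81 for Soga1.

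Most genes had a single region, 660 of 762, and 102 had at least 2. Cuedc1 had 6 regions, all in intron 1 and within 46.8 kb, 5 of them with an adult-higher site at 1.00 to 1.85 in the authors' deposited table. Ahdc1 and 9430078K24Rik had 5 each, and Gm25888, Gm8275, Irf2bp2 and Notch1 had 4 each.

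Of the 856 regions, 181 (21.1%) were within 10 kb of another and 286 (33.4%) within 50 kb, shares that were not compared with those of other sets. Neighbours within 50 kb formed 32 runs of at least 3 regions. The longest run, 7 regions over 55.0 kb at chr10:80154351-80209333, is assigned to Midn, Cirbp, Efna2 and Pwwp3a and includes the neonatal-higher Midn region. Another 6 lie over 73.7 kb at chr15:85599539-85673247 around Wnt7b, a Wnt ligand gene, and Lncppara. Neighbouring regions share their libraries and often their assigned gene, so they are not independent of each other.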

How the data were processed

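H4K8ac ChIP-seq libraries of sorted neonatal (3) and adult (3) OPCs were analysed, with a separate peak list for each. What the authors deposited per peak is, per the file headers, a fold enrichment (a linear ratio), a score, −log10 p-values and −log10 q-values and an annotation of position and nearest gene. The largest q-value of a list lies between 0.0427 and 0.0489. A further deposited table, of differential sites and without a header, has columns that hold the log2 fold change and the p-value before and after adjustment. Per the submitters' processing notes the build is GRCm38 and the tools were Trim Galore, Bowtie2 2.4.5, SAMtools, deepTools, MACS2, DiffBind and ChIPseeker. Their settings, and whether input was used for the peaks, are not given in the sources used here.

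Peaks were merged where they shared at least 1 bp (Python 3.11.15, pandas 2.3.3), and a region took the gene of its peak with the highest percentile and the class most of its peaks carry. Where several sites overlapped a region, the one sharing most bases was used. Coordinates count from 1. Exact two-sided permutation tests over libraries, 4 in all, were adjusted by Benjamini-Hochberg (scipy 1.17.1). The merge and tests were checked on simulated data. The members, the gene lists and the rule for naming were chosen with earlier results of these data known. Named are the 10 regions of highest median percentile, genes with most regions (1 of them is not reported here), list genes with a region, all regions with a neonatal-higher site, the 5 largest positive sites and the 5 longest adult marks. Alternatives changed the merge distance, q-value limit, list length, presence rule, site overlap and p limit, and left out each library. Analysis of sequence at each region's centre was not run, since no genome was used.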

Additional observations from a re-analysis of the deposited data

How the results depend on the processing

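The 856 regions became 308 when all 3 neonatal lists were asked for, 38 when peaks had to cover 50% of the region, 112 when each list was limited to its 7353 strongest peaks and 474 when neonatal replicate 2 was limited, and leaving out 1 library gave 310 to 920. Under the same 4 settings, in that order, the intronic share was 34.4%, 23.7%, 26.8% and 34.2%, and the exonic, UTR or downstream share 17.5%, 28.9%, 17.9% and 15.2%. Merging peaks within 1000 bp gave 9.11% for the latter, and leaving out 1 library gave 35.5 to 40.7% intronic and 10.9 to 17.4% exonic, UTR or downstream. The distal intergenic share was 55.4% with the strongest peaks only and 47.1 to 49.7% with 1 library left out.

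Adult-higher sites of the authors' deposited table were overlapped by 63.3% of regions with all 3 neonatal lists, 28.9% with 50% coverage, 100% with the strongest peaks, 37.5% with sites at adjusted p under 0.005, and 54.5 to 62.9% with 1 library left out. The neonatal-higher share was 1.30% with all 3 neonatal lists, 1.72% with peaks merged within 1000 bp and 0 with 50% coverage, with the stricter p limit and with the strongest peaks. With 1 library left out it was 0.559 to 0.968%, and over 1.5 times its 0.467% without neonatal replicate 2 (0.968%), neonatal replicate 1 (0.839%) or adult replicate 1 (0.761%). The median log2 fold change of the sites in the authors' deposited table was 1.45 with all 3 neonatal lists, 1.76 with the wider merge, 1.06 with 50% coverage, 1.75 with the stricter p limit, 1.63 with the strongest peaks and 1.46 to 1.54 with 1 library left out.

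The fold difference from promoter counterparts was negative in all 14 alternatives tried for it, −0.52 to −0.39 with 1 library left out but only −0.075 with the strongest peaks (exact p = 0.156). The width difference became 0.36 with the strongest peaks, −0.0068 with neonatal replicate 2 limited, −0.31 with the wider merge, and −0.16 to −0.088 with 1 library left out, the last of these without neonatal replicate 2. The age difference of the fold contrast became 0.12 with the strongest peaks. The age difference of the width contrast, 0.02, became −0.0012 with all 3 neonatal lists, −0.090 with neonatal replicate 2 limited, −0.22 with the wider merge, −0.16 with 50% coverage, 0.60 with the strongest peaks (exact p = 0.1, the smallest possible) and −0.016 to 0.060 with 1 library left out, and its sign is not settled. The cause of these shifts was not tested. The labels state no pairing. Over the 308 regions, Spearman's rank correlation of folds was 0.34, 0.29 and 0.17 for libraries of the same number. All 9 pairs of a neonatal with an adult library ran from 0.14 to 0.39. With the replicate block, the age differences were the same, 0.02 (exact sign-flip permutation test over 3 pairs, p = 1) and −0.38 (p = 0.25), and it changed no call. Reads per library were not analysed here, so what depth limits cannot be stated beyond the length of the lists.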
